A study of Mus musculus with 8 samples.

Results

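The comparison described here set wild-type mouse macrophages exposed to lipopolysaccharide (LPS) for 24 h in the presence of the calcium chelator EGTA against wild-type macrophages exposed to LPS alone for 24 h. Each condition was measured on 1 Affymetrix array, so the pair made up 2 of the 8 arrays of the study. Both cultures were C57BL/6 bone marrow-derived macrophages, labelled with an age of 6 to 8 weeks, that had grown for 7 days in medium with serum and macrophage colony-stimulating factor (M-CSF). Both received smooth LPS at 1 µg/ml, and EGTA was added at 2 mM to the one culture. The other 6 arrays came from wild-type macrophages given LPS and EGTA for 6 h (the labels used here state no EGTA dose for that culture), from wild-type macrophages given LPS for 6 h, from unstimulated wild-type macrophages, and from CD14-deficient macrophages that were unstimulated or given LPS for 6 h or 24 h. None of the 8 arrays held macrophages given EGTA without LPS, and the labels do not say how many animals contributed to a culture. With 1 array per condition there is no replicate error and no test, so differences are given as measured sizes between these 2 arrays.

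Of 12394 genes with a named probe set, 6754 were compared between the 2 arrays. The 8 columns of deposited intensities were quantile-normalised, values under the 40th percentile were set to it (a floor of 38.4 intensity units), and the probe set with the highest mean stood for its gene. A gene was compared if the brighter of the 2 arrays exceeded the overall median of 88.2 units. A gene is called higher or lower below if the 2 arrays differed at least 2-fold, and "at least" before a fold marks a gene whose dimmer array lay at the floor. Where several probe sets of a gene passed, their log2 differences varied with a pooled SD of 0.23 over 2658 genes, which describes agreement within these 2 arrays and not between cultures.

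LPS is recognised on macrophages by Toll-like receptor 4, to which CD14 delivers it, and the receptor drives NF-kB, MAP kinase and interferon regulatory factor signalling. Calcium entry activates the phosphatase calcineurin, which dephosphorylates NFAT transcription factors, and the study's title frames the conditions as ones that allow or block NFAT activation. EGTA binds calcium in the medium with high affinity and also binds other divalent metal ions, zinc among them.

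With EGTA, 69 genes (1.02% of those compared) were at least 2-fold higher and 75 genes (1.11%) at least 2-fold lower than without it. The log2 differences were centred near 0, with an SD of 0.36, and 95% of genes lay between -0.74 and 0.75. The higher genes were led by the chemokine receptor Cxcr4 and held 9 enzymes of cholesterol synthesis, 4 genes of the amino acid stress programme and 3 targets of p53. The lower genes were led by the serpin Serpinb2 and held Il6, Cxcl1, Ccl22, the prostaglandin E synthase gene Ptges, the metalloproteinase inhibitor Timp1, both of the main metallothioneins and genes of DNA replication. With the intensities as deposited, without quantile normalisation, the split was 115 higher and 42 lower, and the median gene lay 0.16 log2 units higher with EGTA. Relative to that deposited median it was 66 higher and 72 lower. List values given below for intensities as deposited include that shift unless they are said to be relative to the deposited median. Calls were more frequent among dim genes: 5.68% of 1584 genes with a mean intensity under 200 units were called, 1.34% of 3210 genes between 200 and 1000 units, and 0.561% of 1960 genes above 1000 units.

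**Figure D1:**
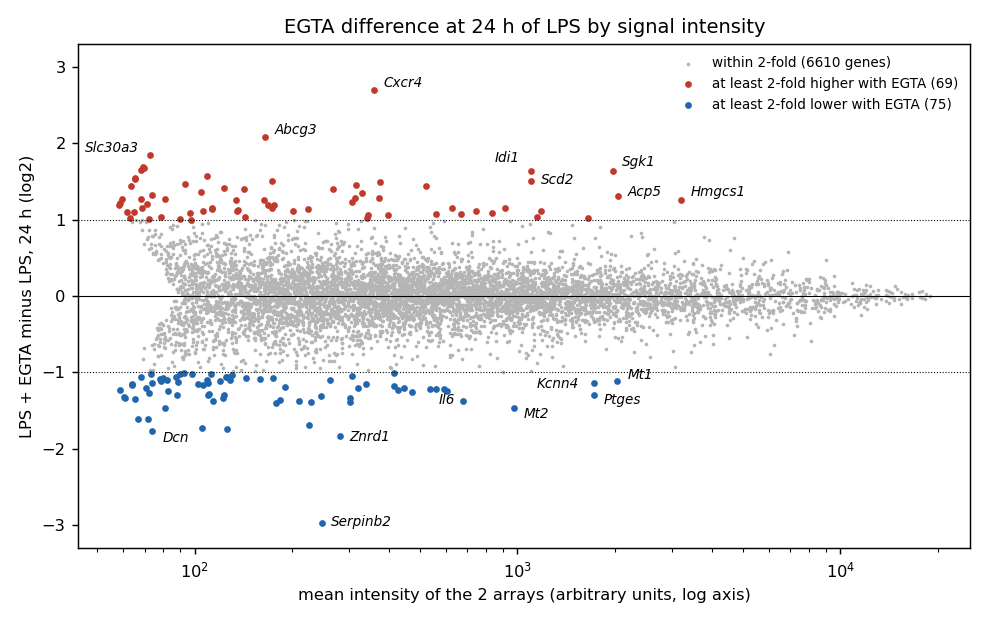
Each point is 1 of the 6754 genes compared, with the mean normalised intensity of the 2 arrays on the x axis (arbitrary units, log axis) and the log2 difference between LPS plus EGTA and LPS alone at 24 h on the y axis; dotted lines mark 2-fold. Called genes are red (69 higher with EGTA) or blue (75 lower), and most of them lie at the dim end, where the cloud is widest.

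RNA quality was alike on the 2 arrays, with an RNA integrity number of 9.5 for each and a ratio of the 3′ to the 5′ actin probe sets of 1.18 with EGTA and 1.11 without. The labelled cRNA yield was 31.4 µg with EGTA, the lowest of the 8 samples, and 52 µg without it; its part in the differences was not tested. The cultures had the markers of macrophages: the summed intensity of 9 macrophage markers was 71667 with EGTA and 70820 without, and none of the 9 was called. The B cell, T and NK cell, dendritic cell, mast cell and basophil, and erythroid marker genes analysed were at the floor on both arrays. Of 5 stromal markers, decorin (Dcn) had 58.2 units with EGTA and 192 without, with the floor value on the other 6 arrays. At the floor were 4 of the 5 with EGTA and 3 without, so another stromal marker had signal on the LPS-only array, under the intensity limit. The 5 summed to 212 units with EGTA, 356 without and 191.9 on each other array. The part of this stromal signal in the results was not tested. Of 8 neutrophil markers, S100a8 had 403 units with EGTA and 432 without, Mmp8 had 158 with EGTA and 98.8 without, and the others did not pass the intensity limit. On bulk RNA of this kind, fewer cells of a type and less RNA per cell cannot be told apart.

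Cholesterol synthesis was the group with the most calls. Its enzymes turn acetyl-CoA through mevalonate, farnesyl pyrophosphate and squalene into cholesterol, and their genes are switched on together by the membrane-bound factor SREBP-2 when sterol in the endoplasmic reticulum is low. All 17 of the analysed enzymes were compared, 9 were at least 2-fold higher with EGTA and 0 were lower, 15 had a positive difference, and the median log2 difference was 1.02. Over all genes compared 1.02% were higher and 50.4% had a positive difference.

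In the mevalonate branch, Hmgcs1, which makes HMG-CoA, had 4975 units with EGTA and 2080.1 without, a 2.39-fold difference. Its other 3 probe sets differed by 1.19, 1.48 and 1.51 log2 units in the same direction. Mvd, the mevalonate pyrophosphate decarboxylase, had 631 units with EGTA and 223 without. Idi1, the isomerase that supplies the allylic isoprene unit, had 1935 units with EGTA and 623 without, the largest difference in the group at 3.10-fold. Pmvk, the phosphomevalonate kinase, was 1.70-fold higher and Mvk, the mevalonate kinase, 1.15-fold higher, both short of a call.

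In the branch from farnesyl pyrophosphate to lanosterol, Fdps had 2352 units with EGTA and 1158 without. Fdft1, the squalene synthase, had 1369 units with EGTA and 613 without. Sqle, the squalene epoxidase, had 1092 units with EGTA and 504 without. Lss, which closes the sterol rings, had 526 units with EGTA and 207 without. Each of these 4 genes was higher by between 2.03-fold (Fdps) and 2.55-fold (Lss). In the branch from lanosterol to cholesterol, Cyp51, the lanosterol demethylase, was 2.13-fold higher at 1217 units with EGTA and 572 without. Dhcr7, which catalyses the last reduction, was 2.84-fold higher at 294 units with EGTA and 103 without. Msmo1 (1.71-fold), Sc5d (1.69-fold), Hsd17b7 (1.51-fold) and Nsdhl (1.28-fold) were higher without a call, and Tm7sf2 and Ebp had log2 differences of -0.02 and -0.12.

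Placed among all 8 arrays, the LPS-only array had the lowest value for 14 of the 17 enzymes. The EGTA array was above the other 6 for 1 enzyme (Mvd), below them for 4 and within their range for 12. Called enzymes were chosen for a low LPS-only value beside EGTA, so this position is in part built in. The LPS-only array was also below the other 6 for 10 of 13 fatty acid synthesis genes and 12 of 22 glycolysis and hypoxia genes. In those lists the EGTA array was below them for 9 and 12 genes. No share over all genes is given. For Hmgcs1 the other 6 arrays ran from 3255 through a median of 6026 to 7740.1 units, which includes the EGTA value of 4975 but not the LPS-only value of 2080.1. For Idi1 they ran from 1125 through 1504 to 2729 units, again around the EGTA value of 1935 and above the LPS-only value of 623. At 6 h the EGTA and LPS-only arrays did not show this difference: the median of the 17 enzymes was -0.01 and 0 were called in either direction, where 0.816% of all genes were called at 6 h. With the mean over all probe sets of a gene, 5 of the 17 enzymes passed 2-fold at 24 h and their median was 0.77.

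**Figure D2:**
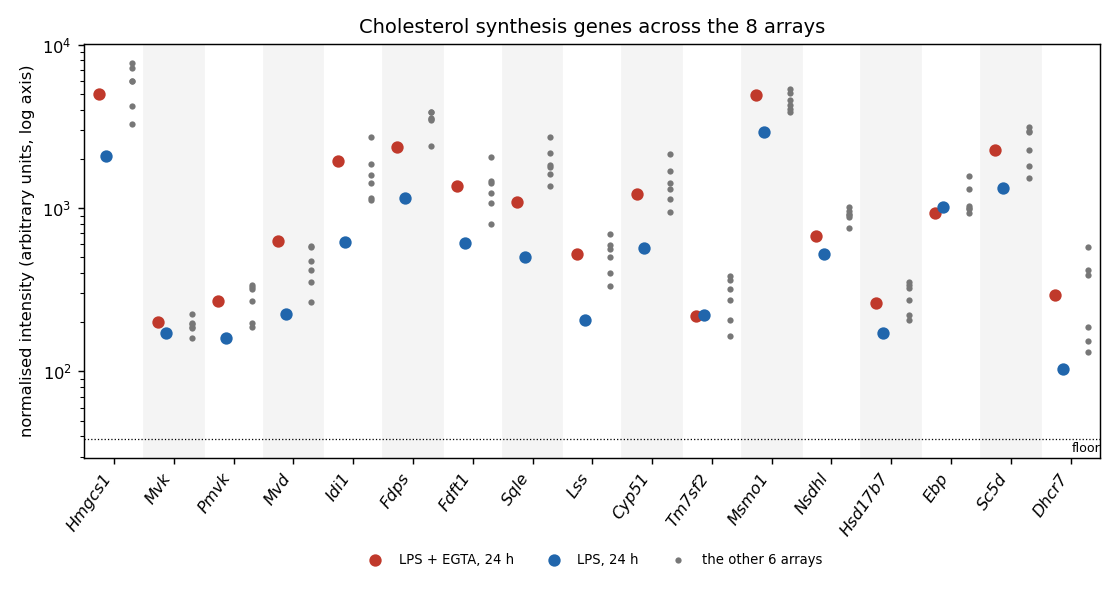
Normalised intensity (arbitrary units, log axis) of the 17 cholesterol synthesis genes compared, with the LPS plus EGTA array in red, the LPS-only array at 24 h in blue and the other 6 arrays in grey; the dotted line is the floor. The blue point is the lowest of the 8 for 14 genes, and the red point lies within the grey range for 12.

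The promoter of Hmgcs1 is shown because it holds both motifs through which SREBP-2 is known to act, the sterol element and the CCAAT boxes of its partner NF-Y. The sequence runs from 250 bases before to 50 bases after the start (RefSeq, GRCm38.p6, chr13:119690101-119690400, plus strand, 5′ to 3′). Capitals mark TCACNCCAC (1 match) and CCAAT (4 matches), searched on both strands, so that CCAAT on the opposite strand reads ATTGG.
Hmgcs1: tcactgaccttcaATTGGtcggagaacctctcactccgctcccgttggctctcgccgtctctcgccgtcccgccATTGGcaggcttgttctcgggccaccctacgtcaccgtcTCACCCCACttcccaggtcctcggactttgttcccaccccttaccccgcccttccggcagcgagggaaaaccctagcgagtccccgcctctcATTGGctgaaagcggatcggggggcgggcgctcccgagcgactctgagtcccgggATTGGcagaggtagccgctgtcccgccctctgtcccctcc
Over 32851 mouse promoters of the same length, TCACNCCAC occurred in 1.24% and CCAAT in 37.4%. Promoters of 15 of the 20 listed enzymes could be matched: CCAAT occurred in 14 of them, including all 6 matched enzymes that were called, and TCACNCCAC occurred only in Hmgcs1. An enzyme counted if any of its windows held a match, while the background counts windows singly. A match of these letters describes the window and does not show binding.

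Among the genes that sense and move sterol, Stard4, a carrier of cholesterol between membranes and itself a known SREBP-2 target, had 523 units with EGTA and 191 without, a 2.75-fold difference. It was the 1 call of 7 genes compared (background 1.02% higher and 1.11% lower). Srebf2, which encodes SREBP-2, had 729.6 units with EGTA and 429 without (1.70-fold), and Srebf1 had 424 units with EGTA and 319 without (1.33-fold). For all 3 genes the LPS-only array lay below the other 6. The cholesterol transporters Npc1 and Npc2 and the SREBP escort Scap differed by between -0.14 and -0.01 log2 units. Of 8 genes of cholesterol efflux and the LXR receptor compared, 0 were called and the median was -0.20 (-0.05 with intensities as deposited); the largest difference was in Mylip, the ligase that degrades the LDL receptor, at 292 units with EGTA and 561 without (1.92-fold lower). With quantile normalisation of the 2 arrays alone, and with deposited intensities taken relative to their median, 1 of the 8 was lower.

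In fatty acid synthesis 2 of 13 genes compared were higher and 0 lower (background 1.02% and 1.11%), with a median of 0.12 (0.27 with intensities as deposited). With both arrays required above the overall median 1 of 12 was higher, since Fasn passed the intensity limit only through the EGTA array. Scd2, a stearoyl-CoA desaturase, had 1863 units with EGTA and 655 without, and its other 2 probe sets differed by 1.03 and 1.36 log2 units. Fasn, the fatty acid synthase, had 155 units with EGTA and 56.3 without. For both genes the EGTA and the LPS-only arrays lay below the other 6, whose lowest values were 2243 units for Scd2 and 201 units for Fasn. Scd1, Fads1 and Acly differed by -0.06, 0.01 and 0.26 log2 units.

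A second group of higher genes belonged to the response to amino acid shortage and endoplasmic reticulum stress that is run by the factor ATF4, which binds composite C/EBP-ATF elements in its targets. Of 24 listed genes compared, 4 were higher and 0 lower (background 1.02% and 1.11%), 22 had a positive difference (50.4% of all genes) and the median was 0.54. With both arrays required above the overall median, 2 of 21 were higher, since Chac1 and Ddit4 passed the intensity limit only through the EGTA array. As deposited, 6 of 24 were higher, and relative to the deposited median 4 of 24 were. Asns, the asparagine synthetase, had 581 units with EGTA and 239 without, and its second probe set differed by 1.33 log2 units. Trib3, a pseudokinase that restrains ATF4 and AKT, had 201 units with EGTA and 91.9 without. Chac1, a glutathione-degrading enzyme, had 111 units with EGTA and was at the floor without, at least 2.90-fold higher; the other 6 arrays ran from the floor to 49.7 units. Ddit4, an inhibitor of mTORC1, had 117 units with EGTA and 46.8 without.

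Further members lay just short of 2-fold. Phgdh, the first enzyme of serine synthesis, was 1.97-fold higher at 308 units with EGTA and 156 without. Mthfd2, of mitochondrial folate metabolism, was 1.84-fold higher, and Atf4 itself was 1.71-fold higher at 3176 units with EGTA and 1853 without. Aminoacyl-tRNA synthetases moved the same way by less, with 1.46-fold for Aars, 1.45-fold for Gars and 1.41-fold for Sars. Atf3 and Psat1 were the 2 members with negative differences, at -0.01 and -0.42. Genes outside the list that were also higher included Atf5, a factor related to ATF4 (259 units with EGTA and 116 without), and Slc38a2, a neutral amino acid transporter (497 units with EGTA and 237 without). The EGTA array was above the other 6 for 12 of the 24 genes, and the LPS-only array was below them for 5. Such positions were also frequent in lists without a call. The EGTA array was above the other 6 for 13 of 19 antigen presentation genes and 11 of 27 interferon-response genes. The LPS-only array was above them for 13 and 12 genes of those lists. No share over all genes is given. The same list had 4 higher calls of 23 genes compared (0.549% of all genes) and a median of 0.48 at 6 h of LPS with EGTA.

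The promoters of Chac1, Asns and Trib3 are shown because they are 3 of the 4 called members and each holds the ATF4 element TGATGNAA, in capitals below on either strand. They are RefSeq promoter windows of GRCm38.p6, each written 5′ to 3′ along its gene: chr2:119350992-119351291 on the plus strand for Chac1, chr6:7693160-7693459 on the minus strand for Asns and chr2:152344011-152344310 on the minus strand for Trib3.
Chac1: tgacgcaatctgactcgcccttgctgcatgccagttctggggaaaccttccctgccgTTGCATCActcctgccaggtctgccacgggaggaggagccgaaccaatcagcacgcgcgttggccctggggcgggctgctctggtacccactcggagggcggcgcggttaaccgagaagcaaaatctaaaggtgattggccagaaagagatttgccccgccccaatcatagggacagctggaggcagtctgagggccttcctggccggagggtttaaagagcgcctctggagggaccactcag
Asns: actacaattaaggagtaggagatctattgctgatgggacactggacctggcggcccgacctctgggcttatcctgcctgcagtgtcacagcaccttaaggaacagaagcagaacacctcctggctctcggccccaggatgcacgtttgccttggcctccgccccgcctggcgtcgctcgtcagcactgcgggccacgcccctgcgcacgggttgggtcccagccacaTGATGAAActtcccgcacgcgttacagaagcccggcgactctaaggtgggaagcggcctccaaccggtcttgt
Trib3: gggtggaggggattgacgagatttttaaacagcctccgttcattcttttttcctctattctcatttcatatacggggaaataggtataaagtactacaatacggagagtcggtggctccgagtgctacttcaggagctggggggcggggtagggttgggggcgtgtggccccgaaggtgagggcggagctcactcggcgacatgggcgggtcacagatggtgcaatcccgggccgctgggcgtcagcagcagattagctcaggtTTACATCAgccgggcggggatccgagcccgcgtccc
TGATGNAA occurred in 3.97% of the 32851 promoters and in 9 of the 23 listed genes whose promoters could be matched. A listed gene counted if any of its windows held a match, while the background counts windows singly. The fourth called member, Ddit4, had none.

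The chaperones and sensors of the unfolded protein response moved less at 24 h. Of 21 genes compared 0 were called (2.13% of all genes were), 19 had a positive difference and the median was 0.20. At 6 h there were 5 higher calls (0.549% of all genes were higher) and the median was 0.49. The protein disulphide isomerase gene Pdia6 was 1.77-fold higher at 24 h, and Creld2 1.61-fold higher. Herpud1, a degradation factor of the endoplasmic reticulum, had 213 units with EGTA and 153 without at 24 h, against 298 units with EGTA and 91.9 without at 6 h.

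Targets of the tumour suppressor p53 were also higher. Of 12 compared, 3 were higher and 0 lower (background 1.02% and 1.11%), 10 had a positive difference (50.4% of all genes) and the median was 0.81. With intensities as deposited 6 were higher, relative to the deposited median 3 were, and with the mean over all probe sets of a gene 2 were. Bbc3, which encodes the pro-apoptotic BH3 protein PUMA, had 266 units with EGTA and 117 without. Zmat3, an RNA-binding zinc finger gene, had 254 units with EGTA and 112 without. Trp53inp1, a stress protein of autophagy, had 970.3 units with EGTA and 461 without, although its second probe set differed by only 0.15 log2 units. Ccng1 (1.78-fold), Aen (1.83-fold), Phlda3 (1.86-fold) and Cdkn1a (1.69-fold, 6067 units with EGTA and 3597 without) were higher without a call. Mdm2, the p53 ubiquitin ligase, had 3048 units with EGTA and 4215 without, in the opposite direction. Ppm1d, a phosphatase that dampens p53 and was not on the list, had 126 units with EGTA and 52.4 without. At 6 h the list's median was 0.21 and 0 were called.

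**Figure D3:**
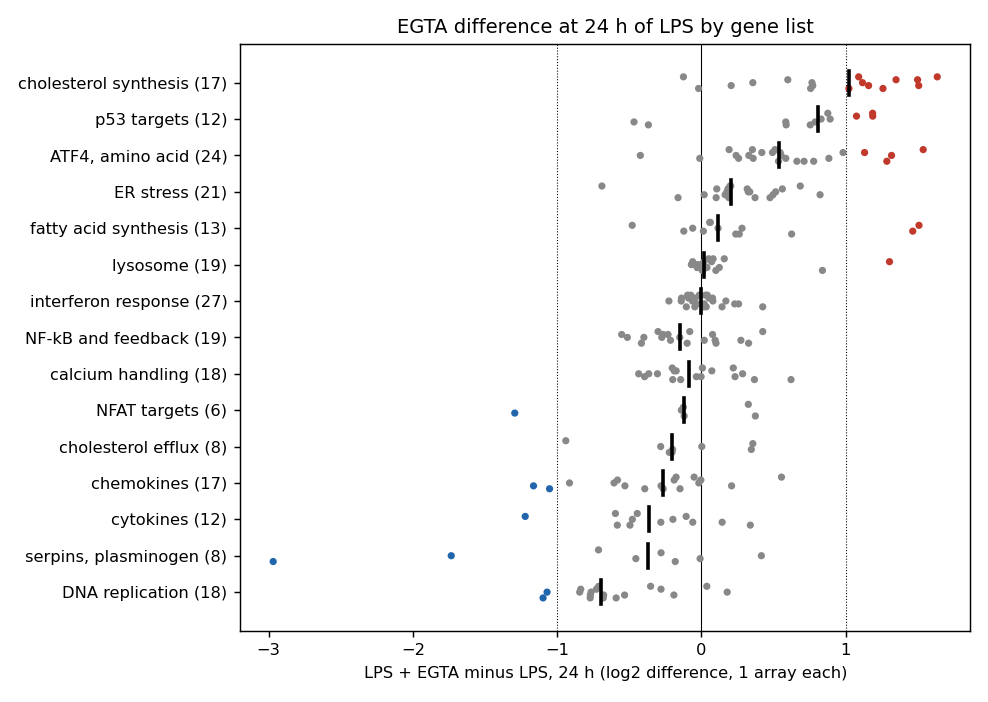
Log2 difference at 24 h between LPS plus EGTA and LPS alone for the members of 15 gene lists (rows, with the number of genes compared in brackets), 1 point per gene, 1 array per condition. Red and blue points passed 2-fold and black bars are medians, which run from 1.02 for cholesterol synthesis to -0.70 for DNA replication.

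The largest single increase was in Cxcr4, the receptor of CXCL12 that retains myeloid cells in bone marrow. It had 916 units with EGTA and 142 without at 24 h, a 6.46-fold difference, and 391 units with EGTA and 106 without at 6 h, a 3.68-fold difference. The 24 h EGTA value was the highest of the 8 arrays, and the other 6 ran from 106 through 223 to 510.1 units. Abcg3, a transporter gene of the ABCG family, had 340.2 units with EGTA and 80.5 without (4.23-fold), and its second probe set differed by 2.71 log2 units. Sgk1, a kinase that regulates ion channels and FOXO factors, had 3487 units with EGTA and 1125 without at 24 h. Acp5, the tartrate-resistant acid phosphatase of osteoclasts and activated macrophages, had 3224 units with EGTA and 1307 without. For both Sgk1 and Acp5 the EGTA array was above the other 6. Dusp2, a phosphatase of ERK and p38, had 489 units with EGTA and 200.2 without at 24 h, and 1096 with EGTA and 340.4 without at 6 h.

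In all, 6475 genes were compared at both times, and the 6 h pair shares no array with the 24 h pair. Of 51 genes that were higher with EGTA at 24 h, 11 (21.6%) were also at least 2-fold higher at 6 h, which is 36.7% of the 30 higher at 6 h. Of all 6475 genes, 0.463% were higher at 6 h (0.549% of the 6740 compared at 6 h). The 11 were Cxcr4, Sgk1, Acp5, Dusp2, Asns, Trib3, Ddit4, Psrc1, a microtubule-associated gene, Cd244a, a receptor of the SLAM family, Col11a2, a collagen chain, and Cysrt1. Of 67 genes lower at 24 h, 2 (2.99%, and 20% of the 10 lower at 6 h) were also lower at 6 h, where 0.154% of all 6475 genes were (0.267% of the 6740 compared at 6 h). They were Spry2, an inhibitor of receptor tyrosine kinase signalling, with 53.5 units with EGTA and 116 without at 24 h, and Rgcc, a cell cycle regulator, with 86.7 units with EGTA and 182 without. By sign alone, 38 of the 51 higher genes (74.5%, against 51.1% of all genes) and 55 of the 67 lower genes (82.1%, against 48.6%) had the same sign at 6 h. Across the 6475 genes, Pearson's r between the 2 differences was 0.39 and Spearman's rho 0.35, over genes that share arrays and are not independent replicates.

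**Figure D4:**
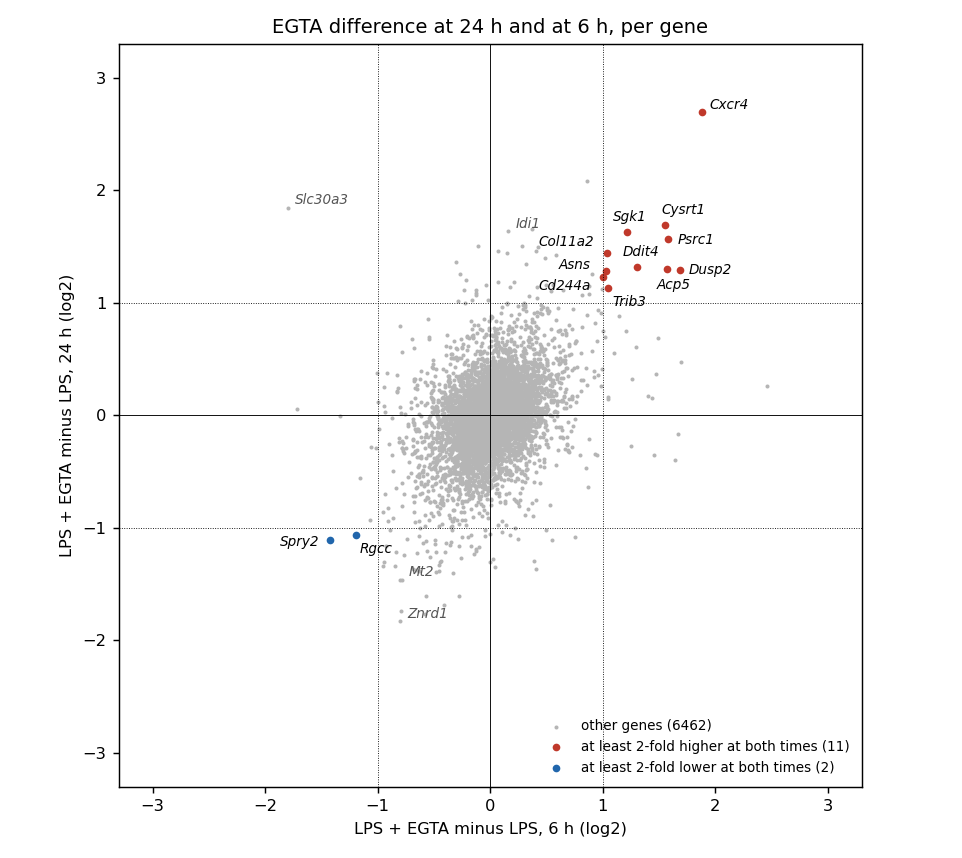
Log2 difference between LPS plus EGTA and LPS alone at 24 h (y axis) against the same at 6 h (x axis) for the 6475 genes compared at both times, 1 array per condition; dotted lines mark 2-fold. The 11 red genes were at least 2-fold higher at both times and the 2 blue genes at least 2-fold lower, while Idi1 lies high at 24 h only and Slc30a3 lies high at 24 h and low at 6 h.

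The lower genes held several that are known to respond to LPS. A link between that response and the EGTA difference was not tested. Serpinb2, the intracellular plasminogen activator inhibitor that macrophages make after LPS, showed the largest decrease. It had 88.5 units with EGTA and 693 without, a 7.83-fold difference, and it was at the floor on both arrays at 6 h; the CD14-deficient arrays had 169.7 units at 24 h and 275 at 6 h. Serpinb1a, an inhibitor of neutrophil proteases, had 68.9 units with EGTA and 229 without at 24 h, and 396 with EGTA and 686 without at 6 h. Of 8 serpin and plasminogen genes compared, these 2 were lower and 0 were higher (background 1.11% lower and 1.02% higher), and the median was -0.37. The median was -0.24 with intensities as deposited, -0.40 relative to the deposited median, and -0.01 over 13 genes with no filter on low values. With both arrays required above the overall median, and with the mean over all probe sets of a gene, 1 was lower; the urokinase receptor Plaur differed by -0.01.

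In prostaglandin synthesis, Ptges, the inducible synthase that makes prostaglandin E2, had 1106 units with EGTA and 2711 without, and its second probe set differed by -1.16 log2 units. Ptgs2, the cyclooxygenase upstream of it, had 631 units with EGTA and 1068 without, 1.69-fold lower and short of a call. Pla2g7, which degrades platelet-activating factor, was higher, with 812 units with EGTA and 386 without. Of 10 genes compared in this pathway, those 2 calls, 1 in each direction, were the only ones (background 1.02% higher and 1.11% lower).

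Among cytokines 1 of 12 genes compared was lower, 0 were higher, 10 had a negative difference and the median was -0.36, where 1.11% of all genes were lower and 49.5% had a negative difference. The median was -0.24 with intensities as deposited, -0.39 relative to the deposited median, and -0.08 with no filter on low values, which takes in 18 genes. Il6 had 349.7 units with EGTA and 816 without at 24 h (2.33-fold lower), and 977 with EGTA and 1538 without at 6 h (1.57-fold lower). The unstimulated wild-type array was at the floor for Il6. Tnf had 2507 units with EGTA and 3535 without, Il10 had 813 with EGTA and 1107 without, and Ifnb1 had 149.8 with EGTA and 224 without, log2 differences of between -0.58 and -0.45. Il12b, at 62.6 units with EGTA and 63.4 without, fell short of the intensity limit, and Csf2 and Il2 were at the floor on both arrays. Among chemokines 2 of 17 were lower, 0 were higher, 15 had a negative difference and the median was -0.27, against the same 1.11% lower and 49.5% negative over all genes. The count was 1 with intensities as deposited and 2 relative to the deposited median. It was 1 with both arrays required above the overall median, since Cxcl1 passed the intensity limit only through the LPS-only array. Cxcl1, a neutrophil attractant, had 71 units with EGTA and 159 without. Ccl22, a ligand of CCR4, had 213 units with EGTA and 442 without. Cxcl2 was 1.89-fold lower at 1010 units with EGTA and 1904 without, and Cxcl10, an interferon-induced ligand of CXCR3, was 1.04-fold lower at 11965 units with EGTA and 12396 without. Cxcr3 itself had 187 units with EGTA and 489.7 without, and the eotaxin receptor Ccr3 had 53.9 with EGTA and 128 without.

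Further called lower genes had various roles and are described singly. Timp1, the inhibitor of metalloproteinases, had 394 units with EGTA and 934 without. It was the 1 call of 12 metalloproteinase and inhibitor genes compared (background 1.11% lower and 1.02% higher). Their median was -0.16 (-0.02 with intensities as deposited, and -0.17 relative to the deposited median). Inhba, the activin A subunit, had 179 units with EGTA and 383 without. Pgf, placental growth factor, had 131 units with EGTA and 339.6 without. For Ptges, Timp1, Inhba and Pgf the LPS-only array was above the other 6 and the EGTA array within their range. Slc7a2, the arginine transporter that feeds inducible nitric oxide synthase, had 419 units with EGTA and 1091 without, and its other 2 probe sets differed by -1.28 and -1.38 log2 units. Cav1, the scaffold protein of caveolae, had 305 units with EGTA and 731 without, and Car2, carbonic anhydrase, had 368 with EGTA and 853 without. Kcnn4, a potassium channel opened by intracellular calcium, had 1167 units with EGTA and 2561 without, the lowest value of the 8 arrays being the one with EGTA. Vegfa, the vascular growth factor, was in the opposite direction, with 332 units with EGTA and 151 without. It was the 1 higher gene of 22 glycolysis and hypoxia genes compared (background 1.02% higher). With the mean over all probe sets of a gene, 0 of 21 were higher, so Vegfa was not called there.

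**Figure D5:**
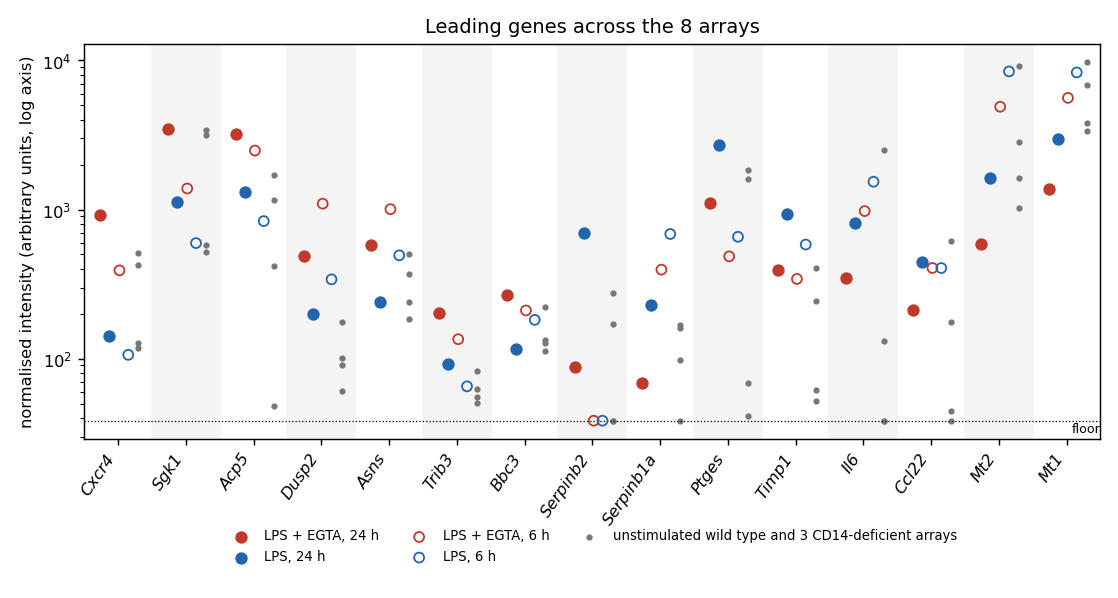
Normalised intensity (arbitrary units, log axis) of 15 leading genes, with LPS plus EGTA in red and LPS alone in blue, filled at 24 h and open at 6 h, and the unstimulated wild-type and 3 CD14-deficient arrays in grey; the dotted line is the floor. Cxcr4, Sgk1, Acp5, Dusp2, Asns and Trib3 show red above blue at both times, and Mt1 and Mt2 show red below blue at both times.

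The response of the called genes to LPS was read on arrays outside the pair. Lower genes were called for a higher value on the LPS-only array at 24 h, and higher genes for a lower one. Many of the lower genes passed the intensity limit only through that array. This choice can by itself raise the share of LPS-induced genes among the lower calls and of LPS-repressed genes among the higher calls. The shares over all genes given below are not matched for it, so a link between the EGTA difference and the LPS response was not tested. Of the 67 lower genes that could be compared there, 18 (26.9%) were at least 2-fold higher at 6 h of LPS than in unstimulated wild-type macrophages and 7 (10.4%) at least 2-fold lower, against 10.5% and 9.5% of all 6936 genes compared there (10.5% and 8.27% of those also compared in the 24 h pair). Of 48 higher genes, 9 (18.8%) were higher at 6 h of LPS and 15 (31.3%) lower. In CD14-deficient cells at 24 h of LPS against their own unstimulated array, the lower genes split into 12 higher and 12 lower of 63, and the higher genes into 5 higher and 10 lower of 49, against 8.29% higher and 8.77% lower of all genes compared there (8.57% and 6.45% of those also compared in the 24 h pair). At 6 h of LPS in CD14-deficient cells, 18 of 64 lower genes were higher and 10 lower, and 8 of 45 higher genes were higher and 12 lower, against 10.3% higher and 8.99% lower of all genes compared there (10.6% and 7.17% of those also compared in the 24 h pair).

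Other groups of the LPS response had no called gene. Of 27 interferon-response genes compared 0 were called, and their log2 differences ran from -0.23 (Oasl1) to 0.42 (Oas3). Of 19 genes of NF-kB and its feedback inhibitors 0 were called and the median was -0.15, with 5998 units with EGTA and 8564 without for Cd14, the LPS co-receptor. Of 19 genes of antigen presentation 0 were called. The background for a call in either direction was 2.13% over all genes and 0.561% over genes above 1000 units. Counts of 0 in lists of this size lie near those shares and do not set these groups apart.

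Among the listed genes of the calcineurin and NFAT pathway, 0 of 7 compared were called. Of 12 listed NFAT targets, 6 passed the intensity limit. Of these, Ptges was lower and 0 were higher (background 1.11% lower and 1.02% higher). Called genes outside these lists, such as Il2ra described below, were not counted here. The 7 compared members of the pathway had a median of -0.12, between -0.49 for Rcan3 and 0.44 for Ppp3r1, the regulatory subunit of calcineurin. Rcan1, a calcineurin inhibitor and a common reporter of NFAT activity, had 414 units with EGTA and 449.7 without at 24 h, and 837 with EGTA and 1311 without at 6 h. Of 35 listed genes that release, import, pump or bind calcium, 18 were compared and 0 of these were called (2.13% of all genes were). The list does not hold every gene tied to calcium, and Hrc (higher) and Letm1 (lower) were called outside it. Stim1, the sensor of calcium in the endoplasmic reticulum, was 1.54-fold higher and Orai1, its plasma membrane channel, 1.31-fold lower. The medians of the NF-kB, NFAT and calcium lists were smaller in size than the 0.16 shift between the scalings: with intensities as deposited, the pathway and target medians were 0.04 each and the calcium median 0.03. Relative to the deposited median, the pathway, target and calcium medians were -0.12 each.

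Metallothioneins are small cysteine-rich proteins that hold zinc and copper, and the metal-sensing factor MTF-1 switches their genes on when free zinc is high. Mt1 had 1382 units with EGTA and 2992 without at 24 h, 2.17-fold lower. Mt2 had 589 units with EGTA and 1621 without, 2.75-fold lower. For both genes the EGTA array was the lowest of the 8, and for Mt1 the LPS-only array was also below the other 6. The other 6 ran from 3358 through 6189 to 9779 units for Mt1 and from 1027 through 3731 to 9251 units for Mt2. At 6 h the differences were 1.48-fold and 1.73-fold in the same direction, with 5612 units with EGTA and 8311 without for Mt1 and 4893 with EGTA and 8446 without for Mt2. The 2 genes are close in sequence, and their probe sets may share signal. They were the only calls among 13 genes of metallothioneins, MTF-1 and zinc transport (background 1.11% lower and 1.02% higher). With the mean over all probe sets of a gene, 1 of the 13 was lower, Mt2, and Mt1 was not called. Mtf1 was 1.56-fold higher, although its second probe set differed by -0.72 log2 units, and Slc30a4, a zinc exporter into vesicles, was 1.81-fold lower at 193 units with EGTA and 349.8 without. Outside that list, the zinc transporter Slc30a3 had 138 units with EGTA and was at the floor without, at least 3.59-fold higher.

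The promoters of Mt1 and Mt2, which lie side by side on chromosome 8, are shown because both genes moved together and both windows are dense in the metal response element. Capitals mark TGCACNC or TGCGCNC on either strand, 3 matches in Mt1 (chr8:94178839-94179138, plus strand) and 4 in Mt2 (chr8:94172368-94172667, plus strand), in RefSeq windows of GRCm38.p6.
Mt1: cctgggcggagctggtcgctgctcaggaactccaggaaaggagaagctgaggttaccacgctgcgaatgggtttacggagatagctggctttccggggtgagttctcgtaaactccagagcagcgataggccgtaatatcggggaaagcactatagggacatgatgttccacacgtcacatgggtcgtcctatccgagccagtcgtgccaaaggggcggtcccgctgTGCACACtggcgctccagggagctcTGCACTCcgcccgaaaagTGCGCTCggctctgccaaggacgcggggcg
Mt2: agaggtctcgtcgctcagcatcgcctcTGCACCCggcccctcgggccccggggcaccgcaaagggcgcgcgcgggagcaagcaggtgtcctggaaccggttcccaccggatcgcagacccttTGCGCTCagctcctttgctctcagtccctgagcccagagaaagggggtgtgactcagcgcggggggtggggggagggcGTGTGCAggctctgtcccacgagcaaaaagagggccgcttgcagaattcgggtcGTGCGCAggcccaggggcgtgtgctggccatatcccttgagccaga
Of the 32851 promoters, 25.7% held at least 1 match and 1.97% held 3 or more. Of 13 listed genes whose promoters could be matched, 7 held at least 1, counting any window of a gene where the background counts windows singly. These letters mark the windows only, and metal content was not measured.

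DNA replication genes were mostly lower, with few passing 2-fold. Of 18 compared, 2 were lower and 0 higher (background 1.11% and 1.02%), 16 had a negative difference and the median was -0.70. Of all genes, 49.5% had a negative difference. With intensities as deposited 0 of 16 were called and the median was -0.54. Relative to the deposited median, 2 of 16 were lower and the list median was -0.70. With no floor and log2 of intensity plus 16, 0 were called, and with both arrays required above the overall median 1 of 15 was lower. Mcm2, a subunit of the replicative helicase, had 87.8 units with EGTA and 188 without, and its second probe set differed by -1.08 log2 units. Lig1, the ligase that joins Okazaki fragments, had 121 units with EGTA and 253 without. Mcm4 and Mcm5 were 1.80-fold and 1.79-fold lower, Rrm1, a ribonucleotide reductase subunit, was 1.70-fold lower and Fen1, a flap nuclease, 1.71-fold lower. Pcna, the polymerase clamp, had 7044 units with EGTA and 8043 without. The EGTA array was below the other 6 for 4 of the 18 genes and the LPS-only array above them for 1, Fen1. No share over all genes is given for these positions. At 6 h the median was -0.11 and 0 were called.

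Outside the list, 5 called genes of replication, repair and checkpoints were chosen after their values were seen because they were called, so they do not show how such genes moved in general. Atm and Atr, the kinases that respond to DNA damage, differed the other way, by 0.91 and 0.66 log2 units. Rpa2, a subunit of the single-strand binding complex, had 70.9 units with EGTA and 183 without. Tipin, of the replication fork protection complex, had 71.1 with EGTA and 172 without, and Hus1, of the checkpoint clamp, was at the floor with EGTA and had 96.4 without (at least 2.51-fold lower). Ercc1, of nucleotide excision repair, had 115 units with EGTA and 295 without, and Trip13, an ATPase of the spindle checkpoint, had 126 with EGTA and 406 without. In the mitosis list 1 of 11 genes compared was lower (background 1.11%), with a median of -0.28 (-0.10 with intensities as deposited, and -0.07 over 25 genes with no filter on low values). It was Plk4, the kinase of centriole duplication, which had 110.2 units with EGTA and 291 without. Of 9 regulators of G1 0 were called; Ccnd2, cyclin D2, was 1.76-fold lower at 507 units with EGTA and 895 without.

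Single calls fell in further lists, where the background was 1.02% higher and 1.11% lower. Itgal, an integrin chain of leukocytes, was 2.06-fold higher among 18 adhesion and matrix genes compared. Slc40a1, the iron exporter ferroportin, had 298 units with EGTA and 137 without among 12 iron genes, and the unstimulated arrays had 1499.7 units in wild type and 3229 in CD14-deficient cells. Ier2, an immediate early gene, had 486 units with EGTA and 240.2 without, and Egr1 was just under the limit at 1335 with EGTA and 673 without (1.98-fold). Klf2, a zinc finger factor of the same list, differed about as much the other way, with 117 units with EGTA and 229 without (1.96-fold lower), and 7 of the 14 genes compared were positive and 7 negative. Outside the lists, higher genes included Mmab, of vitamin B12 metabolism (156 units with EGTA and 71.8 without), Adgre5, the adhesion receptor CD97 (437 with EGTA and 166 without), Slc19a2, a thiamine transporter (202 with EGTA and 75.3 without), Cd300a, an inhibitory receptor (1743 with EGTA and 807 without), and Gpr31b (939 with EGTA and 421 without). Lower genes outside the lists included Htr2b, a serotonin receptor (277 with EGTA and 624 without), Pcdh7, a protocadherin (191 with EGTA and 482 without), Srp68, of the signal recognition particle (293 with EGTA and 677 without), and Dpy30, of histone H3K4 methyltransferase complexes (211 with EGTA and 488 without). Znrd1, a subunit of RNA polymerase I, had 149 units with EGTA and 531 without, and its antisense neighbour Znrd1as was at the floor with EGTA and had 95.8 without; the probe sets of overlapping genes cannot be told apart fully.

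The remaining called genes belonged to none of the lists and were mostly dim. Immune receptors and regulators stood on both sides. Cd93, a phagocyte surface receptor, had 1644 units with EGTA and 799.7 without, although its second probe set differed by only 0.09 log2 units. F11r, the junctional adhesion molecule JAM-A, had 252 units with EGTA and 106 without, and Dnase1l3, a nuclease of macrophages that needs calcium and magnesium, had 141 with EGTA and 66.5 without. On the lower side, Il17re, a receptor chain for IL-17C, had 77.2 units with EGTA and 195 without. Il1f9, which encodes the cytokine IL-36 gamma, had 56 units with EGTA and 120.1 without, and Il2ra, the alpha chain of the IL-2 receptor, had 47.4 with EGTA and 98.6 without. Among transcriptional regulators, Mxd1, a partner of MAX that opposes MYC, had 278 units with EGTA and 653 without. Ets2, an ETS factor downstream of MAP kinases, had 294 units with EGTA and 588 without, just past 2-fold, and Batf3, an AP-1 family factor, had 43 with EGTA and 95.9 without. Ctdsp2, a phosphatase of the RNA polymerase II tail, had 142 units with EGTA and 369.6 without, and its second probe set differed by -1.52 log2 units. Rab2b, a small GTPase of Golgi traffic, had 78.6 units with EGTA and 194 without, and all 4 of its other probe sets were lower too, by log2 differences of -0.80 to -1.79.

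Of the other called genes, Tmem267 had 861 units with EGTA and 317 without, Ddhd1, a phospholipase of phosphatidic acid, had 572 with EGTA and 275 without, and Trmt10a, a tRNA methyltransferase, had 169 with EGTA and 76 without with a second probe set 1.66 log2 units higher. Timm22, of the mitochondrial inner membrane translocase, had 227 units with EGTA and 507 without, and Mfhas1 had 389 with EGTA and 902 without. The other higher genes were 1700097N02Rik, Cbfa2t3, Ccdc25, Cyb5d1, Gm11517, Gm6958, Hrc, Il16, Itfg2, Lysmd1, Madd, Med12l, Prkar1b, Pter, Rita1, Slc20a2, Slc25a42, Tmem120b, Tuft1, Yipf7 and Zfp958, and their folds ran from 2.00 (Pter) to 3.20 (Itfg2). The other lower genes were Bag5, Cd24a, Cgref1, Chst15, Decr2, Dstyk, Fabp7, Fam118a, Fignl1, Galnt10, Gm12185, Gstm3, Letm1, Miga2, Neurl4, Nomo1, Oaf, Phlda1, Rab23, Rdh10, Riox1, Rps27, Sdr42e1, Spata13, Tmem216, Tmod1, Unc119b, Zadh2, Zfp358 and Zscan26, and their folds ran from 2.00 (Spata13) to 3.40 (Tmem216), always lower with EGTA. The genes just past the 2-fold limit were Pter and Madd (2.01-fold) on the higher side and Ets2 and Spata13 on the lower side, and among genes just short of it were Egr1 and Phgdh.

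Among called genes, the 2 arrays of the pair were placed against the other 6. The calls were chosen by the values of these same 2 arrays, so an extreme position is in part built in. No share over all genes compared is given beside these counts, so they do not show which array made the difference. Of the 69 higher genes, the EGTA array was above the other 6 arrays for 40 and the LPS-only array below them for 25, with both holding for 5 and neither for 9. Of the 75 lower genes, the EGTA array was below the other 6 for 44 and the LPS-only array above them for 20, with both holding for 4 and neither for 15. Where a called gene had a further compared probe set, all 20 such higher genes had the same sign on it and 15 were at least 2-fold higher there too. Of 15 such lower genes, 14 had the same sign and 10 were at least 2-fold lower. These probe sets read the same 2 RNA samples, so their agreement does not extend to other cultures. The exception was Mdp1, a phosphatase gene, whose probe sets differed in both directions. For 49 of the 69 higher and 60 of the 75 lower genes the call rested on 1 probe set, and 8 of the higher and 4 of the lower calls were bounds against the floor.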

How the data were processed

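Total RNA of 8 macrophage cultures was labelled with biotin and hybridised to Affymetrix mouse arrays. The deposited values are linear intensities made with MAS5, per the submitters' processing notes, and no source used here states their scaling target. Of 22690 probe sets, 20393 carry 1 gene in the platform annotation, and 20364 of these were matched by gene ID to current RefSeq symbols (GRCm38.p6). The 8 columns were quantile-normalised, floored and compared as described above with Python 3.11.15, numpy 2.4.6 and pandas 2.3.3; the steps were tested on simulated data. With 1 array per condition, the number of arrays limits the precision, and no test was run. The calls use a 2-fold limit. The 46 gene lists (738 genes, 89 of them not analysed here) and the comparison itself were chosen with earlier results of these data known. Named genes were the 20 largest differences each way with both arrays above the floor, every called list member, the 3 largest differences of each list, a fixed set of LPS and NFAT genes, genes called at both times, and other called genes. Promoter sequences come from RefSeq (GRCm38.p6).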

Additional observations from a re-analysis of the deposited data

Results flagged for a closer look

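Slc30a3, a zinc transporter gene, differed in opposite directions at the 2 times. At 24 h it had 138 units with EGTA and was at the floor without, a log2 difference of 1.84, and at 6 h it was at the floor with EGTA and had 133 units without, a log2 difference of -1.80. Both are bounds against the floor, each rests on 1 array per condition and 1 probe set, and the difference between the times was not tested.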

How the results depend on the processing

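The named genes were recomputed under 9 alternatives (149 to 226 of them could be compared in each), and 0 that were called changed sign. The counts of 69 higher and 75 lower genes moved by more than 1.5 times under these settings: 115 higher and 42 lower with intensities as deposited, where the median gene lay 0.16 log2 units higher with EGTA; 47 lower with no floor and log2 of intensity plus 16; and 36 higher and 33 lower with both arrays required above the overall median, which tests fewer genes. The median of the cholesterol synthesis genes, 1.02, was 0.77 with the mean over all probe sets of a gene, where 5 enzymes passed 2-fold instead of 9. Under all alternatives 24 of the 69 higher genes (among them Cxcr4, Sgk1, Acp5, Hmgcs1, Idi1 and Asns) and 21 of the 75 lower genes (among them Serpinb2, Ptges, Il6, Timp1 and Mt2) passed 2-fold. The scaling relative to the median of compared genes was chosen after seeing the data. No paired analysis was possible because each condition has 1 array. Dim genes limit the comparison, since 90 of the 144 calls had a mean intensity under 200 units.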

Other observations

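Probe sets without a single gene name were left out of the comparison above. Of 492 unlisted probe sets that passed the intensity limit, 3 were at least 2-fold higher with EGTA and 8 lower, and of 441 that carry several genes 7 were higher and 3 lower. The largest difference among these was in a probe set without a listed gene, with 1510 units with EGTA and 237 without.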
